A study of Mus musculus with 32 samples.

Results

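Mouse embryonic stem cells (ESCs) of the V6.5 line grown with serum were examined for differences from cell to cell. Every cell of both serum ESC libraries was taken, except barcodes that the authors list as irradiated feeder fibroblasts. This left 138 of 143 barcodes in replicate A and 164 of 170 in replicate B, 302 cells in all, of 7650 cells kept from the 32 libraries of the series. The series followed mouse embryonic fibroblasts (MEFs) as they were reprogrammed to pluripotency, and ESCs were sampled as the end state.

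The serum ESCs carried no added small molecules and were kept in knockout DMEM with fetal bovine serum and leukemia inhibitory factor (LIF). They are set beside V6.5 ESCs sampled at day 2 in the same medium with A2S (669 cells, 2 libraries). A2S combines ascorbic acid, the DOT1L inhibitor SGC0946, the GSK3 inhibitor CHIR-99021 and the MEK inhibitor PD-0325901. Untreated MEFs (729 cells, 2 libraries) served as cells that should lack ESC genes. All ESCs come from 1 line. Whether replicates A and B were separate cultures is not stated, and p-values here reflect only how far these libraries differ, which may be technical.

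Pluripotency is described as a range of states. Naive cells resemble the epiblast before implantation, and primed or formative cells resemble it after implantation. With serum and LIF, mouse ESCs are known to mix cells with high and low levels of naive transcription factors such as Nanog, Zfp42 (Rex1) and Esrrb. Inhibition of MEK and GSK3 together is known to hold cultures in the naive state. The DNA methyltransferase Dnmt3b and the POU factor Pou3f1 (Oct6) rise as cells leave that state.

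The serum ESC libraries held 2227968 and 2561767 UMIs (unique molecular identifiers, each counting 1 captured transcript 3' end), with medians of 16461.5 and 14853 UMIs per cell. The A2S libraries had medians of 10112 and 12251 UMIs per cell, and the MEF libraries 22796 and 19102. No barcode of the serum ESCs occurred in another library. At least 1 UMI of the markers Nanog, Zfp42, Esrrb, Dppa5a and Dnmt3b was found in 137 of 138 cells of replicate A and 162 of 164 of replicate B, against 19 of 298 and 25 of 431 MEFs, so the marker genes bore out the label. A list of 25 fibroblast genes made up a median of 0.0667% and 0.0657% of a serum ESC's UMIs, and reached 0.5% in 1 cell of each library.

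The 5 markers differed in how widely they were detected. Zfp42, a zinc finger factor of naive cells, had a UMI in 72.5% and 72.0% of serum ESCs, against 87.7% and 90.5% of ESCs with A2S. It had none in the MEFs, which allows shares of up to 1.01% and 0.696% of cells with a UMI (counting error only). Esrrb, an orphan nuclear receptor, had one in 64.5% and 64.6% of serum ESCs, against 84.8% and 91.2% with A2S and 0% and 0.232% of MEFs. A part of the serum ESCs thus gave no UMI of Zfp42, and a part none of Esrrb, although these cells were more deeply sequenced than those with A2S.

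After each cell was thinned to 5000 UMIs, which left out 16 and 16 serum ESCs, 66 and 36 ESCs with A2S and 12 and 24 MEFs, Zfp42 was found in 54.9% and 48.0% of serum ESCs, against 89.6% and 83.8% with A2S. Nanog, a homeodomain factor of the pluripotency core, was then found in 74.6% and 73.6% of serum ESCs, against 98.7% and 98.8% with A2S. For Dppa5a, an RNA-binding protein of pluripotent cells, the thinned shares were 85.2% and 84.5% in serum ESCs, against 84.4% and 84.9% with A2S. These shares overlap for Dppa5a and stand apart for Zfp42 and Nanog. Dnmt3b was found in 77.0% and 82.4% of thinned serum ESCs, against 67.5% and 67.6% with A2S. Pou3f1 was found in 28.7% and 27.7% of thinned serum ESCs, against 1.62% and 1.16% with A2S. Wide gaps the other way were seen for the naive factors Tbx3, found in 13.9% and 9.46% of thinned serum ESCs, against 84.1% and 81.5% with A2S, and Tfcp2l1, in 27.0% and 26.4%, against 91.6% and 93.1%. No test of shares was made, since 2 libraries against 2 allow no exact permutation p under 0.33.

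The promoters of 3 naive factors and of Dnmt3b are shown because these genes moved together or in opposition from cell to cell below. Each is the 250 bases before a RefSeq start in the build GRCm38.p6, the assembly also called mm10, written 5' to 3' along the gene. Capitals mark matches, on either strand, to the POU octamer ATGCAAAT, the Esrrb motif TCAAGGTCA, the Sox motif ATTGTT, the Klf motif CCACACCC or the GC box CCCGCCC, whose matches can overlap. Zfp42 lies at chr8:43307010-43307259 (minus strand), Klf4 at chr4:55532476-55532725 (minus), the upstream start of Esrrb at chr12:86360867-86361116 (plus) and Dnmt3b at chr2:153649199-153649448 (plus).
Zfp42: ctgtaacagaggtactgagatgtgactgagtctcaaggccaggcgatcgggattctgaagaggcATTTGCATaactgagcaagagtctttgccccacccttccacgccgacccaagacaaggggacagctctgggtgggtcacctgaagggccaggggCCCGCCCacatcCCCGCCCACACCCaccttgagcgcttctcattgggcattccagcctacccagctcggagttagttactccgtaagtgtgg
Klf4: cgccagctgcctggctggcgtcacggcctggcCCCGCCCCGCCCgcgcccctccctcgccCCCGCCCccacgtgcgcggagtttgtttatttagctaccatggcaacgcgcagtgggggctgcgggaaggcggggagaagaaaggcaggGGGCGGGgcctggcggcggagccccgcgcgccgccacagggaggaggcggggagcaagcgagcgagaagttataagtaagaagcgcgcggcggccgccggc
Esrrb: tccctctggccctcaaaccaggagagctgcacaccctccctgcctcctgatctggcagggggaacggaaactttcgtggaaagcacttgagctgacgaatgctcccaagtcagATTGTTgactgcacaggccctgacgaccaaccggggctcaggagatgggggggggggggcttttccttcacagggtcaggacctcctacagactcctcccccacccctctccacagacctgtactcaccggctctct
Dnmt3b: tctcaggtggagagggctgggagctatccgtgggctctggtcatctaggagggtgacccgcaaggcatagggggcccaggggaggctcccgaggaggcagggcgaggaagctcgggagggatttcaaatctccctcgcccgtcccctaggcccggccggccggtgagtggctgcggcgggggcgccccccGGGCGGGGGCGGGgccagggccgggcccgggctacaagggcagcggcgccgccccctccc
The Zfp42 promoter held an octamer on the reverse strand, a Klf motif that overlaps a GC box, and 1 further GC box. The Klf4 window held 4 GC boxes, the Dnmt3b window 2 and the Esrrb window a Sox motif. Of 32817 mouse promoters of this length, 1.6% hold the octamer, 0.39% the Esrrb motif, 9.42% the Sox motif, 3.19% the Klf motif and 23.39% the GC box. These matches describe the letters only. Of 21 genes looked for, 16 were matched in the RefSeq table.

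A naive score was formed for each cell as the summed UMIs of 8 transcription regulators and signalling genes of the naive state (Zfp42, Esrrb, Tfcp2l1, Klf4, Nr0b1, Tcl1, Tbx3 and Prdm14) as a share of the cell's UMIs, given in CPM (parts per 1e6). Serum ESCs had a median of 879 and 814 CPM, against 2289 and 2291 CPM in ESCs with A2S. Their spread was wide: the 10th and 90th percentiles were 55.2 and 2225 CPM in replicate A and 0 and 2294 CPM in replicate B. ESCs with A2S lay between 1262 and 3371 CPM and between 1491 and 3203 CPM at the same percentiles. No UMI of the 8 genes was seen in 10 cells (7.25%) and 20 cells (12.2%) of the serum libraries, against 4 cells (1.07%) and 2 cells (0.678%) with A2S. In the sum of the 8 genes the highest serum ESCs therefore reached the levels of A2S cells, and the lowest gave almost none of these transcripts.

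**Figure D1:**
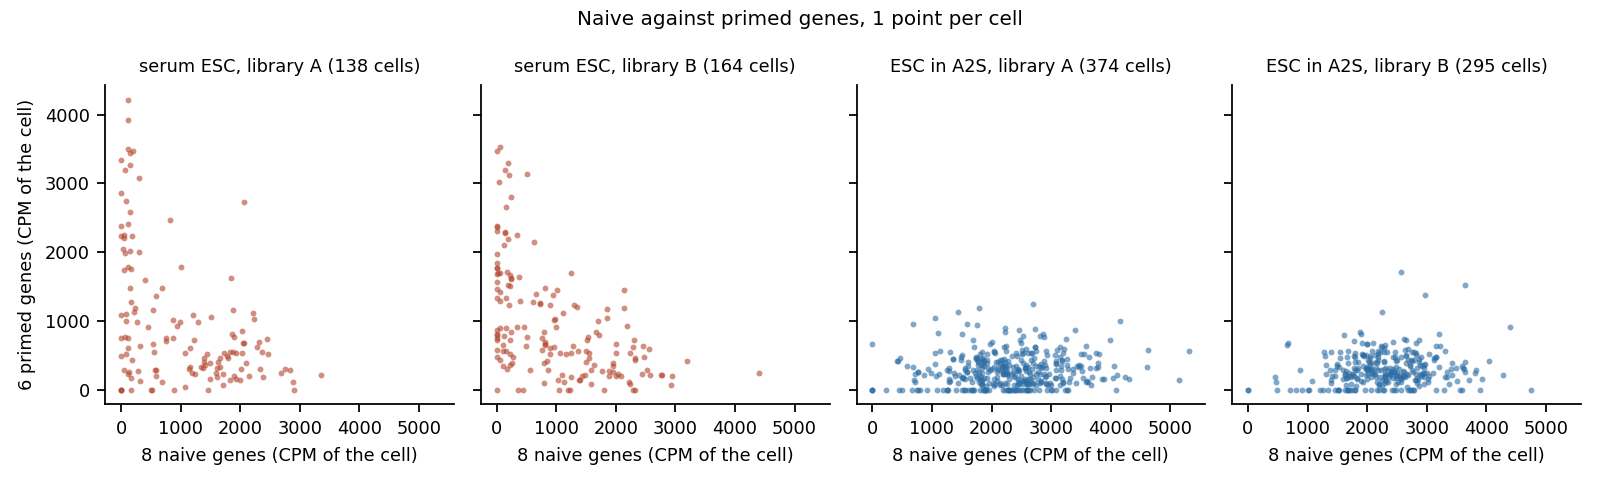
Each point is 1 cell, placed by its naive score (x axis) and its primed score (y axis), both as CPM of the cell, with a panel per library, serum ESCs before ESCs with A2S. Serum ESCs spread from 0 to over 2225 CPM on the naive axis with the high primed scores at its low end, while the A2S cells gather around medians of 2289 and 2291 CPM.

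The cells of each library were then ordered by this score and split into 3 bins of equal cell number, low, middle and high, and UMIs were summed over the cells of a bin. The median naive score was 108 and 62 CPM in the low bins (replicates A and B), 879 and 818 CPM in the middle bins and 2000 and 2008 CPM in the high bins. Within 25% of the lower boundary (271 and 246 CPM) lay 8 and 13 cells, and within 25% of the upper (1505 and 1354 CPM) 30 and 27. The lower window is narrower in CPM, so these counts cannot be compared as densities and show no gap between bins. The scored genes differ between bins by construction and are given as a description. Esrrb was at 6.43, 256 and 453 CPM in the low, middle and high bins of replicate A, and at 13.0, 178 and 398 CPM in replicate B. Zfp42 was at 34.7, 216 and 403 CPM and at 37.1, 168 and 453 CPM in the same order. Klf4, one of the reprogramming factors, was at 34.7, 185 and 517 CPM and at 18.0, 208 and 523 CPM. Single score genes did not all match between cultures. Tfcp2l1 was at 126 and 138 CPM in the high serum bins, against 848 and 857 CPM in the high A2S bins. Tbx3 was at 60.8 and 59.9 CPM, against 474 and 495 CPM. Klf4, at 409 and 388 CPM in the high A2S bins, and Nr0b1 (353 and 354 CPM, against 229 and 180 CPM) were higher in serum.

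All other genes were tested between the high and the low bins with edgeR's quasi-likelihood test, in 1 fit of the serum and A2S libraries with the library as a block. CPM levels by bin are scaled with TMM factors, fold changes are log2 of high over low, and calls were made at adjusted p (Benjamini-Hochberg) under 0.05. Of 9915 genes, 844 (8.51%) were higher in the high bin and 915 (9.23%) lower. The fold changes of the 2 libraries had a correlation of r = 0.593 across genes (genes are not independent replicates), and 1757 of the 1759 called genes moved the same way in both. Without replicate A 1086 genes were called, and without replicate B 873, each count then resting on 1 serum library, and DESeq2 called 533, all among the 1759.

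Other genes of the naive state rose with the score almost as a block. Of 38 further naive genes, all tested, 31 were higher in the high bin and 1 was lower, with a median log2 fold change of 1.38, against a median of 0 over all genes. This list, like the other gene lists below, was chosen with earlier results of these data known. Counts of list members are therefore descriptions and no independent support. Nanog was at 657 and 582 CPM in the high bins, against 187 and 187 CPM in the low bins, a log2 fold change of 1.70 ± 0.10 (SE; adjusted p = 7.94e-36, edgeR's quasi-likelihood test). Klf2, a Krüppel-like factor, was at 739 and 1048 CPM in the high bins, against 206 and 210 CPM in the low bins (2.08 ± 0.10). Sox2, a reprogramming factor that primed cells also keep, was at 1039 and 942 CPM, against 333 and 284 CPM (1.66 ± 0.09). For each of these genes both high bins lay above both low bins, with no overlap. Tet2, which oxidises methylated cytosine, rose by 2.63 ± 0.29 on the log2 scale and Dnmt3l, a cofactor of the DNA methyltransferases, by 2.38 ± 0.15. Nr5a2 rose by 3.58 ± 0.62 from low levels (21.1 and 22.8 CPM in the high bins, against 0 and 3.01 CPM in the low bins), and Dppa5a by 1.38 ± 0.09. The exception, Lefty1, an inhibitor of Nodal signalling, fell by 2.33 on the log2 scale, to 217 and 227 CPM in the high bins, against 1064 and 1129 CPM in the low bins.

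Among the largest rises by the naming rule were those of Mylpf (4.42), Cobl (4.2), Jam2 (4.10), Tdh (4.03), Enox1 (3.46), Parvb (3.06) and Hsd17b14 (2.96). Tdh, threonine dehydrogenase, on which mouse ESCs depend for growth, was at 705 and 780 CPM in the high bins, against 41.2 and 47.1 CPM in the low bins (SE 0.14, adjusted p = 1.09e-60, edgeR's quasi-likelihood test). The middle bins, at 622 and 296 CPM, fell between them. Cobl, an actin nucleator, was at 198 and 284 CPM in the high bins, against 15.4 and 11 CPM in the low bins. For these 7 genes each high bin exceeded each low bin.

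**Figure D2:**
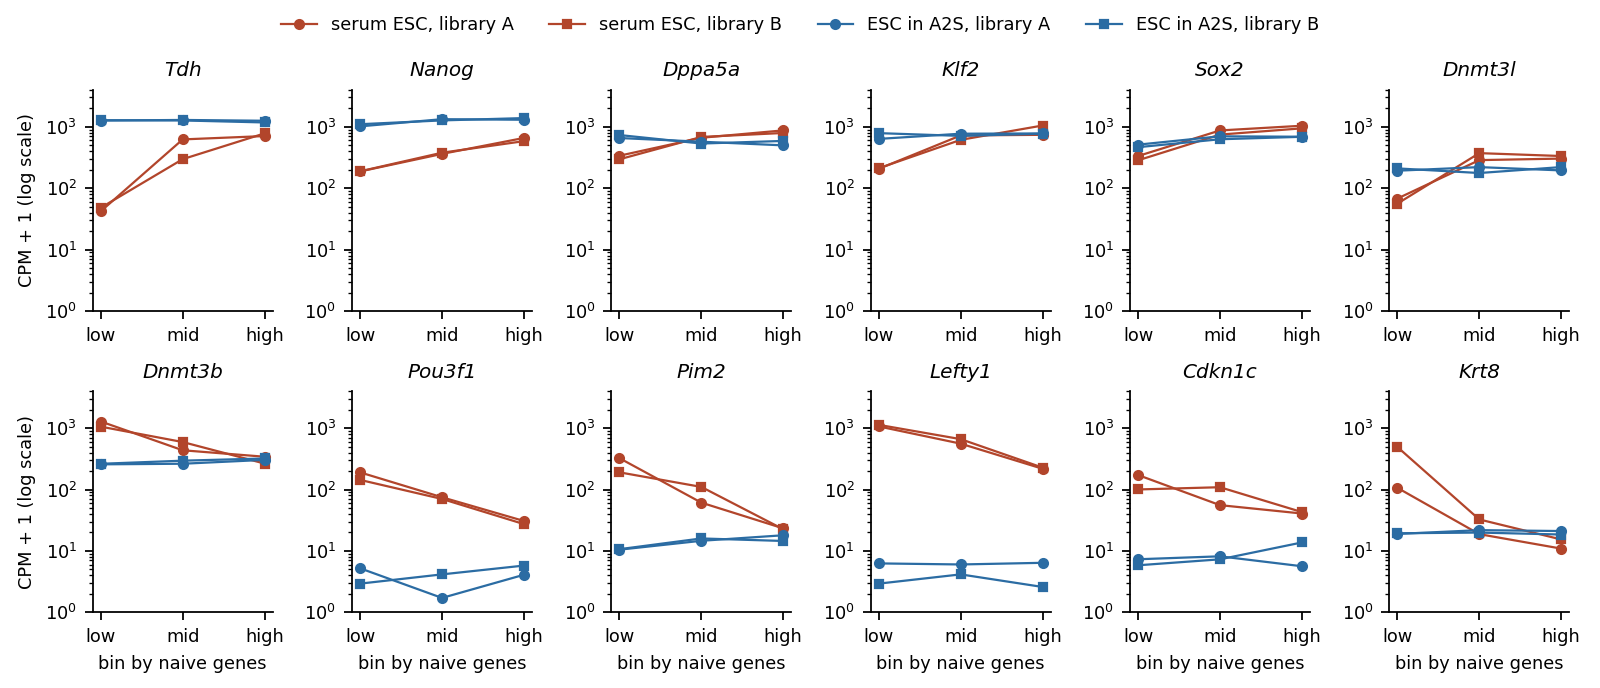
Level of 12 genes, none of them a naive score gene, in the low, middle (mid) and high bins by naive score (x axis), as CPM + 1 on a log scale (y axis), with a line for each library. In serum ESCs the first 5 genes climb in both libraries and Dnmt3b, Pou3f1, Pim2 and Lefty1 descend, while the A2S lines of Tdh stay between 1176 and 1280 CPM at both ends.

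Genes of the primed state were lower where the naive score was high. Of the 6 genes of the primed score 5 were tested, of which 4 fell and none rose. Dnmt3b was at 341 and 264 CPM in the high bins, against 1280 and 1054 CPM in the low bins (-1.97 ± 0.09, adjusted p = 9.97e-45, edgeR's quasi-likelihood test). Pou3f1 was at 29.8 and 26.4 CPM, against 189 and 142 CPM (-2.57 ± 0.22). Dnmt3a fell by 0.43 and Lef1, a Wnt effector, by 1.52 on the log2 scale. Both libraries showed the same order for each. Among 36 further tested genes of primed, formative and early differentiated cells, 22 fell and 7 rose, with a median log2 fold change of -0.66. Pim2, a serine/threonine kinase, was at 22.3 and 21.6 CPM in the high bins, against 323 and 189 CPM in the low bins (-3.53 ± 0.22). Cd24a, a surface protein, was at 49.6 and 51.5 CPM, against 238 and 212 CPM (-2.17 ± 0.18), and the neural factor Sox3 fell by 2.48. Among the 7 that rose were Gbx2, Spry4, Etv4, Etv5, Tcf15 and Enah. The zinc finger factor Zic2 fell by 1.52. Spry4, Etv4 and Etv5 are known targets of FGF and ERK signalling, of which 14 were tested in all: 3 rose, and 6, among them Dusp6 (-1.25) and Ccnd1 (-0.58), fell.

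By the naming rule the largest falls included those of Gbp2 (-6.61), Igf2 (-4.68), Fndc3c1 (-4.63), Krt8 (-4.60), Sema6a (-4.33), Krt18 (-4.32) and Podxl (-3.75). Gbp2, an interferon-induced GTPase, was at 0 and 1.20 CPM in the high bins, against 68.2 and 72.2 CPM in the low bins. The simple epithelial keratin Krt8 was at 9.92 and 14.4 CPM in the high bins, against 105 and 491 CPM in the low bins, but 1 cell held 23.2% of its UMIs in the low bin of replicate A and 58.4% in that of replicate B. Likewise 1 cell held 16.3% and 60% of the Krt18 UMIs, and 33.3% and 62.3% of those of the growth factor Igf2. For these 3 genes the level in replicate B is therefore largely that of 1 cell. The highest cell held at most 15.4% of the UMIs of Sema6a, a semaphorin, in a low bin and 23.6% of those of Gbp2.

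Other gene groups also varied along the naive score. Of 15 tested imprinted genes, 11 fell and none rose (median -1.04). The long noncoding RNA Meg3 of the Dlk1-Dio3 cluster was at 279 and 261 CPM in the high bins, against 518 and 578 CPM in the low bins (-1.04 ± 0.10). Cdkn1c, a cyclin-dependent kinase inhibitor, was at 39.7 and 41.9 CPM, against 171 and 99.2 CPM (-1.72 ± 0.22), and Grb10, an adaptor that restrains growth factor receptors, fell by 0.94. Of 9 p53 targets 5 fell and none rose, among them Mdm2 (-0.69), which marks p53 for degradation, Ccng1 (-0.64) and Trp53inp1 (-0.88). Of 11 stress and immediate-early genes 5 fell and none rose, led by the AP-1 members Jun (-2.56) and Atf3 (-2.14). Of 18 germline genes 4 rose and none fell: Tex19.1 (1.65), which silences retrotransposons, Hormad1 (2.40), a meiotic chromosome axis protein, Dmrt1 (1.34) and Tdrd12 (1.26), of the piRNA pathway. The rises and falls over all genes, 8.51% and 9.23%, are the measure for these counts.

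Of 20 nuclear-encoded respiratory chain genes 6 rose and none fell, by small amounts. Over all genes 8.51% rose and 9.23% fell, which is the measure for each count of this paragraph. Cox5a, a subunit of cytochrome c oxidase, was at 472 and 482 CPM in the high bins, against 347 and 296 CPM in the low bins (0.56 ± 0.10), and Atp5b, of ATP synthase, rose by 0.25. Of 15 glycolysis genes 4 rose, among them Pfkp, a phosphofructokinase (110 and 105 CPM in the high bins, against 19.3 and 26.1 CPM in the low bins), and Slc2a3 (0.45), a glucose transporter, and Slc2a1, the other main glucose transporter, fell by 0.60. Among neural genes, of 6 tested, Sox1 (-3.29) and the intermediate filament Nes (-3.24) fell, and Tubb3 (1.37) rose. Of 9 tested genes of primitive endoderm, an early extraembryonic lineage, 6 fell and 2 rose, the endocytic receptor Lrp2 falling by 2.75 and the laminin Lama1 rising by 3.08.

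Fibroblast genes moved with the score too, and their part in the results was not tested. Of 14 tested, 7 fell and 1, Fn1 (0.73), rose, against 9.23% of all genes lower and 8.51% higher. Fn1 was at -0.59, however, when the listed feeder barcodes were kept. Tagln, an actin-binding protein of contractile cells, was at 29.8 and 99.5 CPM in the high bins, against 233 and 419 CPM in the low bins, with 40.9% and 22.5% of the low-bin UMIs in 1 cell. Over the whole list of 25 genes the summed level was 563 and 725 CPM in the high bins, against 961 and 1141 CPM in the low bins. Of the 25, 12 were higher in both low bins than in both high bins, and 1, Fn1, was lower. The collagen Col5a1 was at 6.20 and 5.99 CPM in the high bins, against 24.4 and 29.1 CPM in the low bins, and Thbs1 at 3.72 and 9.59 CPM, against 66.9 and 95.2 CPM. The surface protein Thy1 was at 2.48 and 0 CPM, against 7.72 and 9.02 CPM. Postn, Dcn, Col6a3 and Tnc, 4 of the 25, were at 0 in every bin, and Lum and Col3a1 at 0 to 1 CPM. With the cells rich in fibroblast genes left out, 1767 genes were called. That setting still kept 137 of 138 serum ESCs in replicate A and 163 of 164 in replicate B. With so few cells removed, its count cannot show what part fibroblast transcripts had in the calls.

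In ESCs with A2S fewer genes moved with the naive score, but the bins there also lay closer together. Their median score was 1553 and 1672 CPM in the low bins and 3097 and 2952 CPM in the high bins (replicates A and B). Serum bins spanned 108 to 2000 CPM and 62 to 2008 CPM. The part of the narrower range in the smaller effects with A2S was not tested. The same contrast called 436 of 9915 genes (4.4%) with A2S. The difference of the effects, serum minus A2S, was itself tested and called for 1100 genes (11.1%), 30 of them among the 38 further naive genes. These genes had a median log2 fold change of 0.02 in A2S cells, against the 1.38 in serum ESCs. Of the 20 respiratory chain genes the difference was called for 12, with a median log2 fold change of -0.28 in A2S cells, against 0.22 in serum ESCs. With A2S the naive score was higher in deeper cells (Spearman correlation with total UMIs 0.266 and 0.149). The part of depth in the differences was not tested. Nanog differed between high and low bins by 0.30 with A2S, and the difference of the effects was 1.40 (adjusted p = 3.02e-20, edgeR's quasi-likelihood test). Tdh was at 1253 and 1176 CPM in the high bins of A2S cells, against 1262 and 1280 CPM in their low bins, and the effects differed by 4.14 (adjusted p = 3.65e-53, same test). Dnmt3b changed by 0.23 with A2S, a difference of -2.20. Thus for Tdh the A2S cells lay above the high serum bins in both their high and their low bins. Fibroblast genes did move with the score among A2S cells, for example Thbs1, a matrix glycoprotein, by -3.49, close to its -3.60 in serum ESCs (difference -0.10, adjusted p = 0.939, same test). The count of 1100 fell to 615 without serum replicate B, 571 without A2S replicate A and 502 without A2S replicate B.

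**Figure D3:**
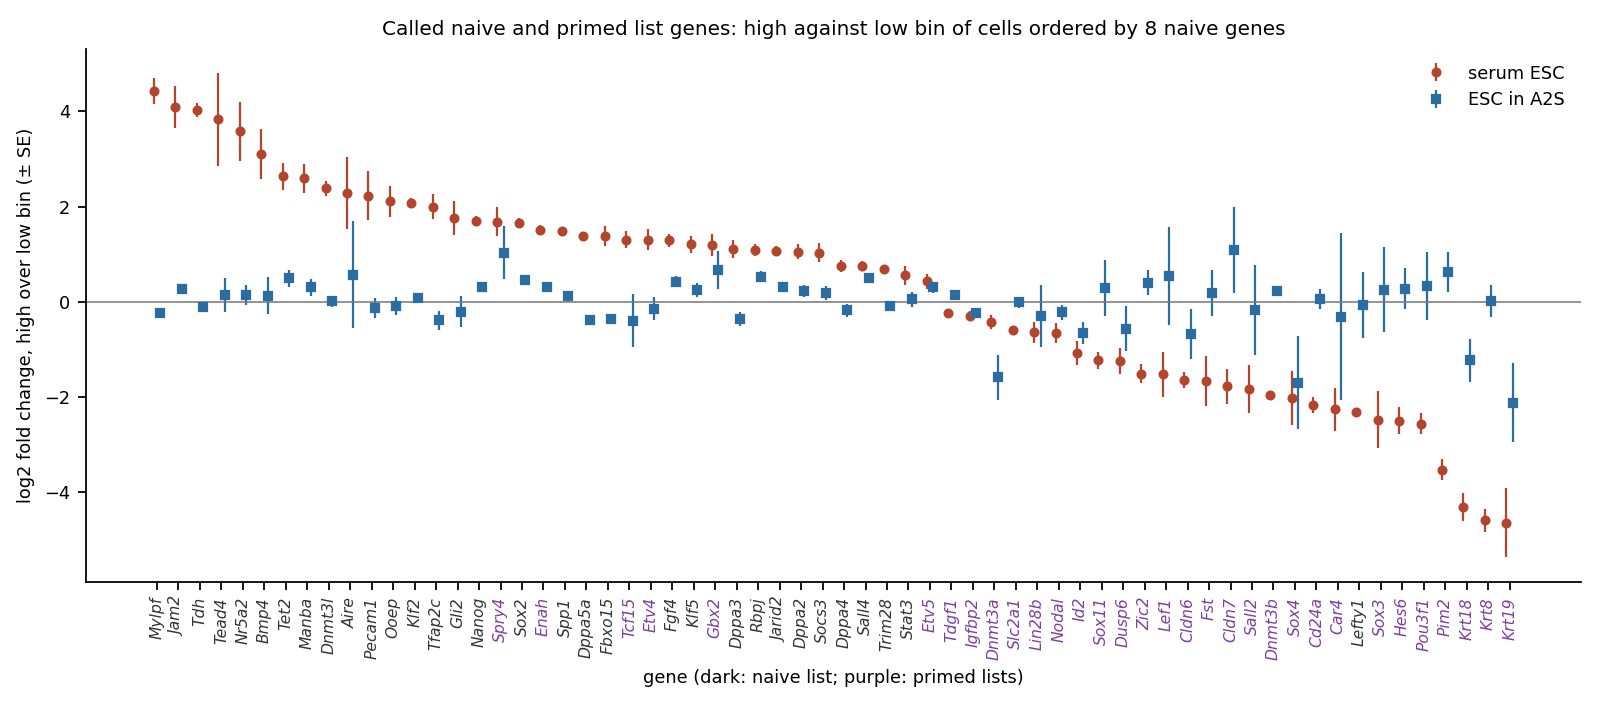
Log2 fold change of high over low bin by naive score (y axis, bars are SE of the fit) for called naive and primed list genes (x axis, ordered by its value in serum ESCs), with serum ESCs left of ESCs with A2S. Serum values run from 4.42 for Mylpf to -4.65 for Krt19, and most A2S values lie near 0.

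The same steps were taken with a primed score from Dnmt3b, Dnmt3a, Otx2, Fgf5, Pou3f1 and Lef1. Serum ESCs had medians of 609 and 678 CPM, with the 10th and 90th percentiles at 141 and 2426 CPM in replicate A and 140 and 2137 CPM in replicate B, against medians of 253 and 262 CPM with A2S. Across cells the naive and primed scores had a Spearman correlation of -0.393 and -0.572 in serum ESCs, and 0.0879 and 0.114 with A2S. Cells share their library and each score its cell's depth, so these are descriptions. Of 9957 genes, 293 (2.94%) were higher and 351 (3.53%) lower in the high primed bin, and 638 of these 644 moved alike in both libraries (r = 0.318 across genes). Without replicate A 417 were called, with 2 bins a library 250, and by DESeq2 135.

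All 8 genes of the naive score were lower in the high primed bin (median -1.96). Esrrb was at 91.6 and 69.3 CPM there, against 384 and 310 CPM in the low primed bin (-2.13 ± 0.14, adjusted p = 5.71e-18, edgeR's quasi-likelihood test). Tfcp2l1, a naive factor downstream of LIF, was at 19.5 and 21.0 CPM, against 118 and 119 CPM (-2.56 ± 0.23). Of the 38 further naive genes 22 fell and only Lefty1 rose, to 916 and 991 CPM in the high primed bin, against 343 and 444 CPM in the low (1.27 ± 0.10). No gene named so far in this contrast had overlapping bins. Of 36 further primed genes 8 rose and 6 fell, with a median of 0.37. Pim2 rose most by the naming rule, at 286 and 236 CPM, against 21.2 and 29.1 CPM (3.32 ± 0.22), followed by Sox1 (3.18), Enpp2 (3.07), which makes lysophosphatidic acid, and Sema6a (2.50). Hes6 (2.18), a member of the Hes family, and Tdgf1 (0.56), the Nodal co-receptor Cripto, rose as well. The keratin Krt18 fell by 2.37, but 73.4% of its low-bin UMIs in replicate B lay in 1 cell, and its log2 fold change was 1.68 when the score was computed from cells thinned to 2000 UMIs.

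Some metabolic and imprinted genes also differed along the primed score, where 2.94% of all genes were higher and 3.53% lower. Of 20 respiratory chain genes 4 fell with the primed score and none rose, Cox5a by 0.71. Of 15 glycolysis genes 1 rose and 2 fell: Ldha, lactate dehydrogenase, rose by 0.43 and Slc2a3 fell by 0.91. Of 15 imprinted genes 5 rose, among them Cdkn1c (1.33), Mest (0.77) and Grb10 (0.49), and Igf2 fell by 4.07, with 65.0% of its low-bin UMIs in replicate B in 1 cell and a log2 fold change of 0.47 with the score from thinned cells. The primed score was higher in deeper cells (Spearman correlation with total UMIs 0.240 and 0.218), which the naive score was not (0.0856 and -0.0540). When cells were binned within groups of similar UMI total, 545 genes were called on the primed score.

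Cell cycle scores had low correlations with the naive score among serum ESCs. The score of 21 S phase genes and the naive score had a Spearman correlation of 0.0513 and 0.188 across cells, and the score of 27 G2/M genes and the naive score of 0.0019 and 0.0236. Between the naive bins, 3 of the 21 S phase genes and 5 of 21 further ones were higher and 2 of the further ones were lower, and of 27 and 26 G2/M genes 1 was higher and 2 were lower in all, against 8.51% of all genes higher and 9.23% lower. S phase and G2/M scores were inversely related (-0.301 and -0.257).

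In the high S phase bin, 142 of 10119 genes (1.4%) were higher and 180 (1.78%) lower. Of 21 S phase genes outside the score 15 rose and none fell (median 0.70). Ung, the uracil-DNA glycosylase, was at 286 and 237 CPM in the high bin, against 80.7 and 65.5 CPM in the low bin (1.83 ± 0.15, adjusted p = 2.7e-13, edgeR's quasi-likelihood test). Rrm2, the small subunit of ribonucleotide reductase, was at 760 and 699 CPM, against 349 and 295 CPM (1.17 ± 0.10). Cdc25a (1.17), a phosphatase that drives entry into S phase, and E2f1 (1.17) rose as well, and of 27 and 26 G2/M genes 9 and 10 fell. Of the 8 genes of the naive score 4 rose and none fell (median 0.62), against 1.4% of all genes higher, and of the 38 further naive genes 2 rose and 1 fell (median 0.11). The 4 were Tbx3 (1.15), Nr0b1 (0.87), an orphan nuclear receptor, Esrrb and Klf4 (0.47). None of these 4 passed edgeR's quasi-likelihood test without serum replicate B (adjusted p between 0.189 for Tbx3 and 0.592 for Klf4) or with the score from thinned cells (between 0.0816 for Tbx3 and 0.963 for Esrrb). Nanog rose by 0.39 ± 0.10 (457 and 433 CPM, against 360 and 313 CPM) and Esrrb by 0.49 ± 0.13, with adjusted p-values of 0.00988 and 0.0139 in edgeR's quasi-likelihood test. Zfp42 (0.41, adjusted p = 0.118), Dppa5a (-0.02) and Dnmt3b (0.07) did not pass the same test. The falls were led by Igf2 and by Krt8, of whose low-bin UMIs 1 cell held 78.6% in replicate B. With the score computed from cells thinned to equal UMIs the count of 322 dropped to 18, and DESeq2 called 60. It was 174 without serum replicate B, 143 without A2S replicate A and 151 without A2S replicate B.

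In the high G2/M bin 57 of 10038 genes (0.568%) were higher and 37 (0.369%) lower. Of 26 G2/M genes outside the score 15 rose and none fell (median 0.79), and 5 of 21 scored and 5 of 21 further S phase genes fell. Cenpf, a kinetochore protein, was at 296 and 353 CPM in the high bin, against 85.6 and 132 CPM in the low bin (1.57 ± 0.14, adjusted p = 3.09e-11, edgeR's quasi-likelihood test). Ube2c, the ubiquitin-conjugating enzyme of the anaphase-promoting complex, was at 660 and 765 CPM, against 204 and 350 CPM (1.36 ± 0.10). Neither of these had overlapping bins. Slbp, the histone mRNA binding protein, and Ung fell by 1.20 and 1.21. None of the 5 ESC markers nor the 8 genes of the naive score passed the test, with Nanog at 0.31 (adjusted p = 0.361) and Dnmt3b at -0.21 (adjusted p = 0.398). DESeq2 called 21 genes. The 94 calls became 28 with the score from thinned cells, 39 without A2S replicate A and 48 without A2S replicate B.

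**Figure D4:**
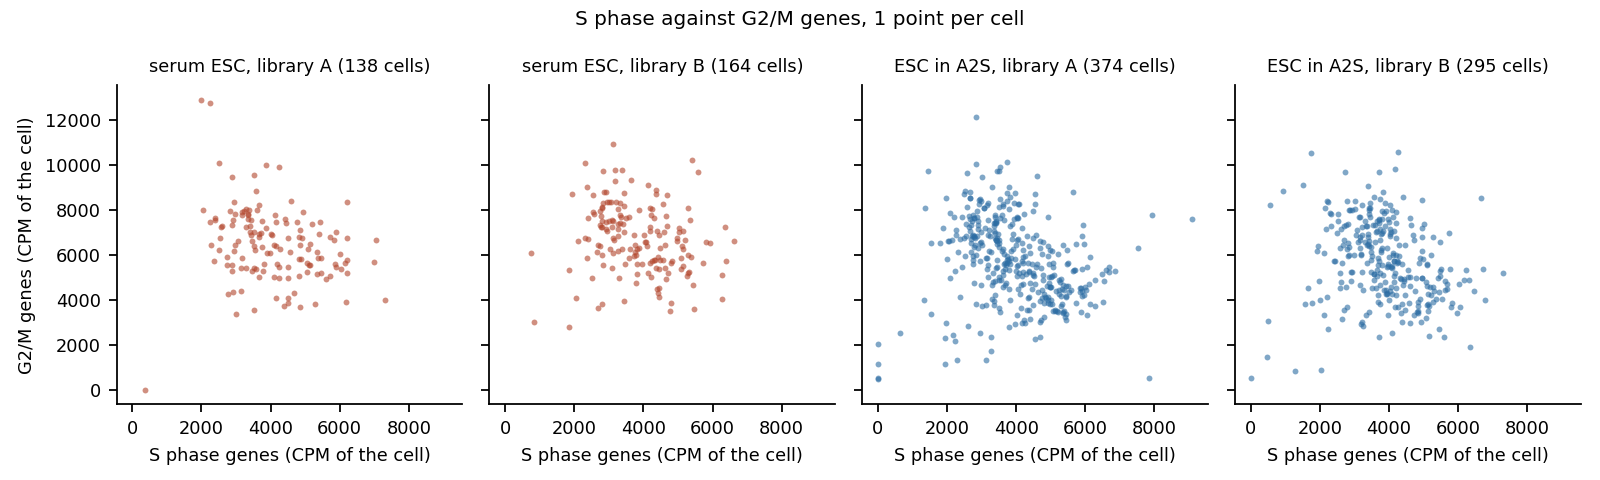
Each point is 1 cell, placed by its S phase score (x axis) and its G2/M score (y axis), both in CPM, with a panel per library, serum ESCs before ESCs with A2S. Cells high on one axis tend to be low on the other, with Spearman correlations of -0.301 and -0.257 in the serum libraries.

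The extent of variation was also measured gene by gene as the squared coefficient of variation beyond Poisson counting noise (CV2), which is 0 where only counting noise is present. Over 5599 genes with a mean of 0.5 UMI per cell or more in both serum libraries, CV2 had a Spearman correlation of 0.438 between the libraries. Phlda1, an ERK-induced gene, had the highest lower value, 11.3 and 11.6, followed by Igfbp3, an IGF-binding protein, (17.9 and 8.05), Krt8 (7.45 and 39.0), Tagln (10.2 and 7.34) and Klhl13 (6.17 and 5.62), an X-linked ubiquitin ligase adaptor. Pim2 (4.19 and 4.51) was among the first 15 as well. For Krt8 a single cell of replicate B held most of the UMIs of the low naive bin, as given above. Without the 5% of cells with the most UMIs the mean CV2 of Phlda1 was 3.62, against 11.5 with them. Of the genes named by CV2 and the 5 markers, 11 moved in that setting by at least the SD of the 2 libraries. With cells thinned to 2000 UMIs 15 did, so these values and their order depend on depth and on few cells.

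All 5 ESC markers varied more in both serum libraries than in both A2S libraries, which 14.1% of all genes did. Zfp42 had a CV2 of 0.681 and 0.788 in serum ESCs, against 0.105 and 0.122 with A2S. Esrrb had 0.680 and 0.859, against 0.0806 and 0.0993, and Nanog 0.630 and 0.602, against 0.156 and 0.197. Tdh (0.864 and 1.18, against 0.0348 and 0.0521) and Tbx3, a T-box factor of the naive state (3.32 and 3.30, against 0.101 and 0.132), stood furthest apart of these. Levels differed as well: Tbx3 averaged 0.457 and 0.402 UMI per cell in serum ESCs, against 3.67 and 4.66 with A2S, and the part of the level in its CV2 was not tested. Pou5f1 (Oct4), which both naive and primed cells express, had only 0.0369 and 0.154 in serum ESCs. Of the naive genes outside the score 19 of 30 measured varied more and 4 less, whereas of 26 and 25 measured G2/M genes 17 and 18 varied less in both serum libraries, against 31.4% of all genes. The floor of 0.5 UMI per cell was set on the serum libraries alone, and many G2/M genes had fewer UMIs per cell with A2S. The part of the level in these counts was not tested either. In both serum libraries 28 of those 30 naive genes varied more than the median gene of similar level, as did 32.3% of all genes.

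Tested with limma on 2 against 2 libraries, 0 of 5359 genes passed (0.0% called), the smallest adjusted p being 0.185, and 658 genes had an unadjusted p under 0.05. This does not show that the cultures varied alike. When the spread was estimated over all libraries of the series, an alternative added after the data were seen, 108 genes (2.02%) were called more variable in serum ESCs and 154 (2.87%) less, and 961 had an unadjusted p under 0.05. The more variable genes included Tdh (difference 3.51 on the log2 scale of CV2, adjusted p = 8.61e-05), Tbx3 (4.34, 0.00292), Esrrb (2.54, 0.0137) and Zfp42 (2.26, 0.0496) in that limma fit. Nanog (1.56, 0.0507), Dnmt3b (1.81, 0.0942) and Dppa5a (0.88, 0.296) did not pass. Genes needed 0.5 UMI per cell only on average over the serum and A2S libraries, so some fell below it with A2S. E2f8, called less variable in serum ESCs, averaged 2.33 and 1.79 UMI per cell there, against 0.302 and 0.485 with A2S. The part of the level in these calls was not tested.

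**Figure D5:**
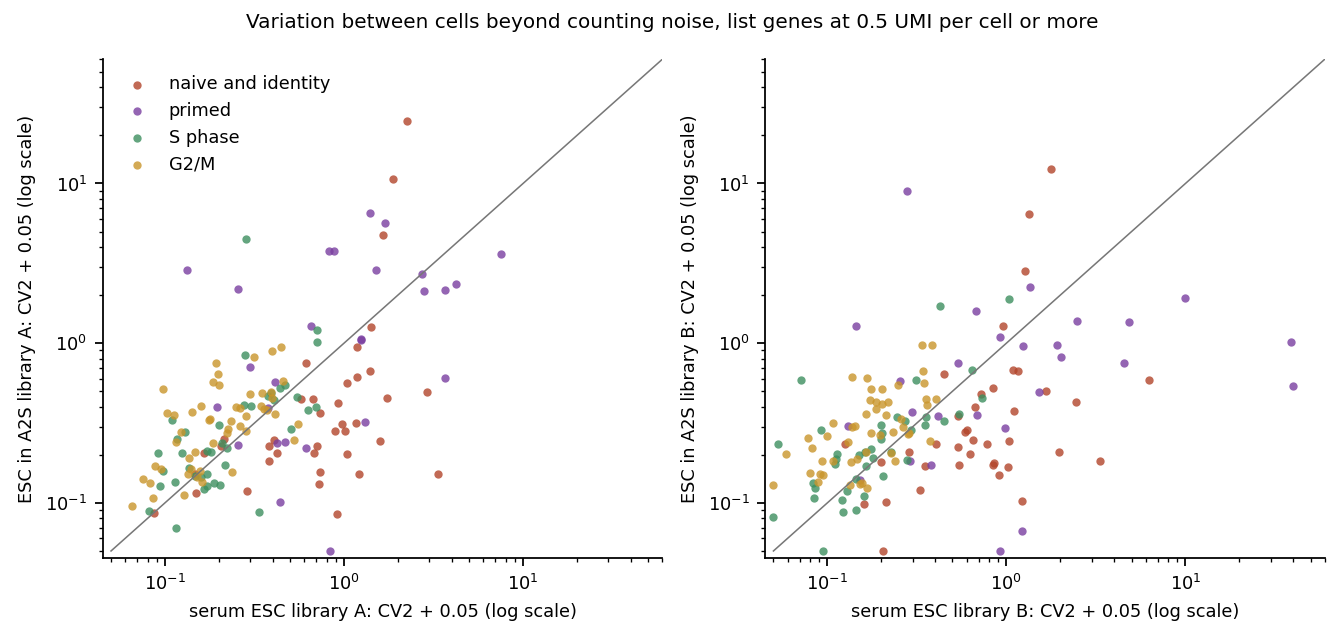
CV2 + 0.05 of list genes in serum ESCs (x axis) against ESCs with A2S (y axis), both on log scales, with a panel per replicate letter and a line of equal values. Naive and marker genes (red) lie mostly to the right of the line, more variable in serum ESCs, and G2/M genes (yellow) mostly above it.

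Pairs of naive and primed genes were followed across cells by their log2 UMIs per 10000, as a description, and ordered by the smaller r of the libraries. Esrrb and Tdh came first (Pearson r = 0.670 and 0.682 in replicates A and B), then Zfp42 and Tdh (0.618 and 0.641) and Zfp42 and Esrrb (0.602 and 0.685). Tdh was inversely related to Lefty1 (-0.454 and -0.431) and to Dnmt3b (-0.407 and -0.415). The keratins Krt8 and Krt18 (0.566 and 0.823) were the first pair of the primed list, with the highest r of these pairs in replicate B. In that library a single cell held most of the UMIs of each keratin in the low naive bin, as given above. Its part in this r was not tested. Of 630 pairs of naive genes 482 had a positive r in both libraries, with a median of 0.163 and 0.163, and 52 a negative r in both. Of 435 pairs of primed genes 243 had a positive r in both and 87 a negative r in both, with a median of 0.07 and 0.0629. The share over pairs of all genes was not computed. Of 1080 pairs of a naive with a primed gene 358 had a positive r in both and 455 a negative r in both, with a median of -0.0114 and -0.0274. Over all genes, those most like Dnmt3b included Pim2 (0.526 and 0.508) and Gja1 (0.464 and 0.592), against a median of 0.0839 and 0.0604 for all genes.

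Cells of rarer states were looked for by their defining genes. The Zscan4 genes of two-cell-like ESCs had no UMI in 302 serum ESCs, which allows a share of cells with a UMI of up to 0.993%, against 6 of 374 and 1 of 295 ESCs with A2S. The primitive endoderm factors Gata6, Gata4, Sox17 and Sox7 had 7 UMIs in 6 cells of replicate A and 12 UMIs in 12 cells of replicate B, so no cell of replicate B had more than 1. At these depths a cell with a single UMI cannot be told from free RNA.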

How the data were processed

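Each deposited table gives whole-number UMI counts, with cells in rows and genes in columns, which the authors made from ddSEQ droplet libraries (SureCell kit, transcript 3' ends), per the labels. The submitters' processing notes name bcl2fastq 2.19, STAR and mm10. What program counted the UMIs is not given in the sources used here, nor is the annotation. Barcodes on the authors' deposited list of irradiated feeder MEFs were left out.

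Members and gene lists were chosen with earlier results of these data known. Cells of each serum and A2S ESC library were ordered by a score (summed UMIs of its genes over the cell's total) and cut into 3 bins, UMIs were summed per bin, and the 12 sums were fitted in R 4.3.3 with edgeR's quasi-likelihood test (edgeR 4.0.16), with library as block, TMM scaling and the filterByExpr filter on low counts. Score genes were left out of the tested genes. A call needed an adjusted p under 0.05 (Benjamini-Hochberg over all genes tested). Each SE is the fold change over the root of its F statistic. CV2 was tested with limma 3.58.1 on log2(CV2 + 0.05), and DESeq2 1.42.0 was an alternative. Both fits were tested on simulated data, in which the CV2 fit missed the genes given a raised CV2. No doublet caller was run, and leaving out the 5% of cells with the most UMIs was an alternative instead. The naming rule took, for each score, 8 called genes at either end of the fold changes that reached 50 CPM in their higher bin, changed alike in both libraries and leaving out mitochondrial, ribosomal-protein, Gm and Rik genes, plus called list members and the 5 markers. For CV2 it took the 15 genes with the largest lower value of both libraries at 0.5 UMI per cell or more, and of gene pairs the 6 highest and 6 lowest. Some of these are described, and a few genes are not reported here. Genes with near-identical copies are uncertain, since the counting is not stated. Intervals and limits cover counting error only.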

Additional observations from a re-analysis of the deposited data

Results flagged for a closer look

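The effect of the naive score differed between serum ESCs and ESCs with A2S for 50 of the genes looked at here. The genes looked at were the ESC markers, the genes at either end of the fold changes and called members of the naive and primed lists. Other gene groups named above were not gone through. The test was that of the difference itself (edgeR's quasi-likelihood test, library as block). Values are log2 fold changes of high over low bin in serum ESCs minus the same in ESCs with A2S, so a positive value means a gene that rose more with the score in serum ESCs. Adjusted p-values run between 0.0481 for Tcf15 and 3.65e-53 for Tdh. The bins of A2S cells spanned a narrower range of the score, and its part in these differences was not tested.

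Among genes picked for the size of their rise were Mylpf (4.65), Tdh (4.14), Jam2 (3.83), Cobl (3.67), Enox1 (3.12), Hsd17b14 (3.01) and Parvb (2.93). Of transcription and chromatin regulators of the naive list there were Nanog (1.40), Sox2 (1.21), Klf2 (2.00), Klf5 (0.96), Nr5a2 (3.44), Tead4 (3.69), Tfap2c (2.39), Gli2 (1.98), Rbpj (0.56), Trim28 (0.76) and Jarid2 (0.76). DNA modification, developmental pluripotency and oocyte genes gave Tet2 (2.15), Dnmt3l (2.38), Dppa2 (0.82), Dppa3 (1.48), Dppa4 (0.94), Dppa5a (1.78), Fbxo15 (1.74) and Ooep (2.20). Signalling, adhesion and enzyme genes gave Bmp4 (2.99), Fgf4 (0.87), Socs3 (0.85), Spp1 (1.35), Pecam1 (2.36) and Manba (2.29). Of the primed list Etv4 (1.45), Tcf15 (1.70) and Enah (1.20) were positive.

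Genes picked for the size of their fall gave Sema6a (-5.25), Krt8 (-4.61), Igf2 (-4.41), Podxl (-4.11) and Krt18 (-3.09), with 60% of the Krt18, 58.4% of the Krt8 and 62.3% of the Igf2 UMIs of the low bin of serum replicate B in 1 cell each. The other negative values were those of Pim2 (-4.16), Pou3f1 (-2.90), Cldn7 (-2.88), Hes6 (-2.78), Lefty1 (-2.25), Cd24a (-2.22), Dnmt3b (-2.20), Zic2 (-1.92), Slc2a1 (-0.58) and Tdgf1 (-0.39). Of these Lefty1 is on the naive list.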

How the results depend on the processing

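Counts of called genes that moved by over 1.5 times are given first. DESeq2 called 533 genes on the naive score (main count 1759), 135 on the primed (644), 60 on the S phase (322) and 21 on the G2/M score (94). With serum libraries alone 139 S phase and 38 G2/M genes were called. With the listed feeder barcodes kept there were 675 S phase calls, 354 G2/M calls and 1659 differences between cultures (1100). Using 2 bins a library gave 250 primed calls, leaving out the cells with most UMIs 173 S phase calls, and a score from cells thinned to 2000 UMIs 18 S phase and 28 G2/M calls. Leaving out 1 library at a time gave 873 to 1614 naive, 417 to 522 primed, 143 to 258 S phase and 39 to 84 G2/M calls, and 502 to 798 differences between cultures; with 1 serum library its sums are assumed to vary like the A2S sums. Spread taken over all libraries (added after seeing the data) gave 262 CV2 calls, against 0. The cause of these shifts was not tested.

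Single genes reversed as follows (log2 fold changes). With listed barcodes kept, Spp1 was at -0.50 and Fn1 at -0.59 on the naive score, Fbn1 at -2.09 on the primed, Fn1 at -1.08 and Dppa5a at 0.035 on the S phase, and Dppa5a at 0.12 on the G2/M score. Without the cells with most UMIs, Phlda1 (0.028), Sparc (0.036) and Gata3 (0.082) reversed on the naive and Zfp42 (-0.040) on the G2/M score. Without 1 serum library at a time, Krt8 was at -3.63 to 0.036 and Phlda1 at -2.32 to 0.028 on the primed score. Zfp42 was then at -0.10 to 0.95, Dppa5a at -0.16 to 0.11 and Dnmt3b at -0.25 to 0.37 on the S phase score, and Esrrb at -0.018 to 0.28, Dppa5a at -0.022 to 0.041 and Igf2 at -4.94 to 0.029 on the G2/M score. With thinned scores, Krt18 (1.68), Krt8 (1.60), Igf2 (0.47), Krt19 (0.45), Phlda1 (0.40) and Sparc (0.26) reversed on the primed score. With them Phlda1 (0.023), Dppa5a (0.022), Zfp42 (-0.0013) and Dnmt3a (-0.0023) reversed on the S phase, and Chaf1b (0.064) and Zfp42 (-0.031) on the G2/M score. With 2 bins, Sp5 (0.13) reversed on the primed, Dppa5a (0.019) on the S phase and Zfp42 (-0.035) on the G2/M score. On the G2/M score Dppa5a, near 0 throughout, was also at 0.00037 by DESeq2, 0.0017 with serum libraries alone, 0.0026 without a library block, 0.0059 without fibroblast-rich cells and 0.020 without cells under 2000 UMIs. Thinning put the CV2 difference of Tfcp2l1 at -1.02. Of the recomputed values of named genes 2395 kept direction and side of the threshold on the naive score and 344 lost the call. These counts were 1274 and 220 on the primed, 851 and 305 on the S phase and 566 and 180 on the G2/M score.

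The fit without the replicate block, which here is the library, called 1626 naive, 564 primed, 284 S phase and 89 G2/M genes. Replicate letters are shared by serum and A2S libraries, but in log2 CV2 their A minus B differences had a correlation of 0.0217 over 5359 genes, so the letters were not taken as pairs, and with the letter as a replicate block 0 CV2 calls were made. Depth limits the low-level genes most, since few UMIs stand behind each of their values.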

Other observations

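Transcripts of the Y chromosome were lower in serum ESCs than in ESCs with A2S, and most serum cells gave none. Of cells with 5000 UMIs or more, 79 of 122 (64.8%) in replicate A and 99 of 148 (66.9%) in replicate B had no UMI of Eif2s3y, Ddx3y, Uty or Kdm5d, against 18.2% and 13.1% of ESCs with A2S and every MEF. After thinning to 5000 UMIs the shares were 77.1% and 77.7% in serum ESCs, where a Poisson count of the same mean would leave 72.1% and 68.0%, against 37.0% and 32.4% with A2S, where it would leave 30.7% and 25.5%. Over the whole libraries Eif2s3y, a translation initiation factor subunit, was at 39.5 and 35.1 CPM in serum ESCs, against 107 and 134 CPM with A2S. Ddx3y, an RNA helicase, was at 20.6 and 17.2 CPM, against 111 and 112 CPM. The histone demethylase Kdm5d had 0 UMIs in both serum libraries, against 55 and 52 UMIs with A2S. Among serum ESCs with an Eif2s3y UMI 43.3% and 35.0% also had one of Ddx3y or Uty, against 14.1% and 8.33% of those without. The same held with A2S, at 74.2% and 74.2%, against 52.5% and 52.0%, and these cells were not thinned to equal depth.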
